A study of Mus musculus with 13 samples.

Results

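The genes described here are 10 of the 55353 genes counted in each library, taken from a fixed list of secreted signals by which the endothelium of a liver addresses its neighbours, together with close partners of those signals. They comprise the Wnt ligands Wnt2 and Wnt9b, the Wnt amplifier Rspo3, the Dickkopf family member Dkk3, the BMP ligands Bmp2 and Bmp6, the hepatocyte growth factor Hgf, the angiopoietin Angpt2, the growth factor Igf1, and Id1, a transcriptional regulator that BMP signaling induces. Their unique molecular identifiers (UMIs, 1 per captured RNA molecule) were read in all barcodes with at least 1500 UMIs, mainly in liver sinusoidal endothelial cells (LSEC) and fibroblasts. LSEC were taken as cells with at least 3 UMIs in sum of Stab2, Clec4g, Gpr182 and Oit3, which gave 34612 of 95563 cells.

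The study profiled livers of male C57BL/6J mice aged 6 to 12 weeks by single-cell RNA sequencing. Mice received chow with 0.1% DDC (3,5-diethoxycarbonyl-1,4-dihydrocollidine), a compound that inflames the bile ducts, or served as controls without it. Livers were taken from controls (D0, steady state, 2 libraries), at D3 and D5 of the diet (onset, 4 libraries) and at D9, D19 and D25 (progression, 6 libraries). A single recovery library (STOP) followed 18 days of diet and 7 days without it. At each atlas time point 1 library came from protocol A, whose sort collected live single cells, CD45+, Lyve-1+, Pdpn+ and Epcam+ cells, Lyve-1- CD31+ cells and retinoid-autofluorescent cells, with single-index kits. The other came from protocol B, whose sort collected viable cells of a stellate cell preparation, Epcam+ cells, Itgax+ CD64- leukocytes and Cd3e+ Lyve-1- cells, with dual-index kits. STOP was a protocol B library. The library labelled D19 of protocol B is given 18 days of diet by its own labels. The makeup of each library was therefore set largely by sorting, the sort and the kit change together, and protocol B had no gate for sinusoidal endothelium.

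In hepatic physiology, Wnt ligands and R-spondins made by endothelium near the central vein keep the hepatocytes around it in their pericentral program. BMP2 and BMP6 from sinusoidal endothelium act on hepatocytes, which answer with hepcidin, the hormone that limits iron uptake. HGF acts through the receptor MET on epithelial cells and is made by stellate cells as well as by endothelium.

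Libraries held 1541 to 14764 cells of 1500 or more UMIs, with median depths of 3350 to 12013 UMIs per cell, and total UMIs ran from 29307190 to 108602421. LSEC numbered 200 to 7760 per library and their median depth ran from 2548 to 15183.5 UMIs. Fibroblasts (at least 3 UMIs of Dcn, Col3a1, Lrat and Colec11, and no LSEC gate) numbered 2 to 511, and 8 atlas libraries held the 20 required for a sum. Any of the 78 pairs of libraries shared at most 49 cell barcodes and at most 0.519% of the smaller library. In LSEC, the summed level of endothelial identity genes outside the gate (among them Lyve1, Stab1 and Mrc1) was 6172 to 15605 CPM (a gene's UMIs per 1000000 UMIs of the class in that library), against 303 to 935 CPM in fibroblasts. The LSEC gate also admitted cells that carried genes of other types. Between 21.7% and 32.6% of LSEC in protocol A, and 23.1% to 57.5% in protocol B, also reached a gate of a non-endothelial class, as did 58.4% in STOP. Many LSEC also reached the vascular endothelial gate (Vwf, Cldn5, Cytl1 and Cd34). The lowest share was 151 of 605 LSEC at D0 of protocol B, and the highest 2381 of 3371 at D19 of protocol A. The lymphatic endothelial gate (Ccl21a, Mmrn1, Pdpn and Flt4) was reached by 100 of 605 LSEC at D0 of protocol B, the lowest share. The highest was 164 of 200 at D3 of protocol B. The labels do not say which mice went into which library, so p-values measure the spread between libraries.

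In the gene models of GRCm38, Wnt2 lies on the minus strand at chr6:17988940-18030585, Wnt9b on the minus strand at chr11:103727364-103749821 and Rspo3 on the minus strand at chr10:29452416-29535867. Bmp2 lies on the plus strand at chr2:133552159-133562885, Hgf on the plus strand at chr5:16553495-16620152 and Id1 on the plus strand at chr2:152736251-152737410. Bmp6 (chr13:38345107-38500302, plus) overlaps Txndc5 and 4930579J19Rik on the opposite strand, Igf1 (chr10:87858265-87937042, plus) overlaps the antisense gene Igf1os, Rspo3 overlaps the antisense gene Gm48159 and Gm20276 on its own strand, Hgf overlaps Gm43489 and Gm42975 on its own strand, and Angpt2 (chr8:18690263-18741562, minus) lies opposite Mcph1. Dkk3 (chr7:112116017-112159057, minus) overlaps no other model. Since the sources used here do not state whether strand entered the counting, reads of those overlapping partners cannot be told apart from the members' own.

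The sequences next to the starts of the 2 Wnt genes are shown because both ligands were higher in the same LSEC subset, as described below. They are taken from the RefSeq promoter table of GRCm38.p6, read 5′ to 3′ on the minus strand and limited to bases before the annotated start, with CpG dinucleotides in capitals. Of the 10 members, 5 had an entry in that table. The Wnt2 stretch covers chr6:18030586-18030695 and the Wnt9b stretch chr11:103749822-103750071.
Wnt2: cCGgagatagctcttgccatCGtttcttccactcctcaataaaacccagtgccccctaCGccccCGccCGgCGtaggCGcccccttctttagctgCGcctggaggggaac
Wnt9b: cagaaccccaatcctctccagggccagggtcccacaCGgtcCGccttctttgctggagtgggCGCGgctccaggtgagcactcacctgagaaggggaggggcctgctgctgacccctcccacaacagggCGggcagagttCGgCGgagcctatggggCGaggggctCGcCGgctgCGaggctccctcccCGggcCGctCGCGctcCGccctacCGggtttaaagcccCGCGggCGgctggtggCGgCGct
The Wnt2 stretch of 110 bases held 8 CpG at 62.7% GC, against a median of 2 in stretches of that length at 32851 promoters, of which 15.9% held as many. The Wnt9b stretch of 250 bases held 22 CpG at 72.0% GC, against a median of 6, and 14.8% of promoters held as many. Neither count says anything about a factor that binds there.

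Across cell classes, Bmp2, Wnt2 and Bmp6 were read chiefly in LSEC. Of all Bmp2 UMIs in cells of the 12 atlas libraries, 95.3% lay in LSEC, as did 92.5% of Wnt2 UMIs and 87.1% of Bmp6 UMIs. Wnt9b and Rspo3 were shared with vascular endothelial cells (Vwf, Cldn5, Cytl1 and Cd34, and no LSEC gate), which held 9.50% of Wnt9b and 14.2% of Rspo3 UMIs although they made up 1.27% of atlas cells. Hgf was spread more widely, with 75.9% of its UMIs in LSEC, 9.22% in macrophages and 7.87% in fibroblasts. Of Igf1 UMIs 54.3% lay in macrophages and 22.8% in LSEC. These shares follow the cells captured, among them 8292 macrophages, 1472 fibroblasts and 44 hepatocytes. Per UMI of the class, Igf1 had a mean of 890 CPM in portal-like fibroblasts (5 libraries) and 471 CPM in macrophages (12 libraries). Its median level in LSEC over the 12 atlas libraries was 72.6 CPM, and 11.2 CPM without LSEC that also reached a non-endothelial gate, whereas that of Bmp2 was 1228 and 1885 CPM. Id1 was divided between LSEC (41.7%), cholangiocytes (26.5%) and macrophages (15.2%). LSEC made up 37.7% of atlas cells, so their share of Id1 UMIs lay near their share of cells.

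Free RNA in droplets gives UMIs in cells that do not express a gene, so shares of positive cells were set beside T and NK cells, which should lack these ligands, after each cell was thinned to 1500 UMIs. The shares were pooled over the atlas libraries. Most LSEC came from protocol A and most T and NK cells from protocol B. The background was therefore read largely in other libraries than the LSEC, and was not compared library by library. Bmp2 was detected in 79.7% of LSEC against 0.986% of T and NK cells, and Wnt2 in 26.6% against 0.214%. For Hgf the shares were 18.03% and 0.266%, for Bmp6 13.8% and 0.0600%, for Rspo3 10.6% and 0.163%, for Wnt9b 5.48% and 0.0514%, and for Dkk3 4.602% and 0.334%. For Id1 they were 13.5% and 0.875%, and Igf1 had the smallest ratio, with 5.35% and 0.763%. Without thinning, Bmp2 was read in 94.6% of LSEC and 2.31% of T and NK cells, Wnt2 in 55.2% and 0.514%, and Igf1 in 13.5% and 2.37%. Unthinned median depths per library were 2548 to 15183.5 UMIs in LSEC and 2196 to 7702.5 UMIs in T and NK cells. Angpt2, a ligand that opposes angiopoietin 1 at the receptor TIE2, was close to absent, with a UMI in 0.229% of LSEC and a level of 0.132 to 1.97 CPM.

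**Figure D1:**
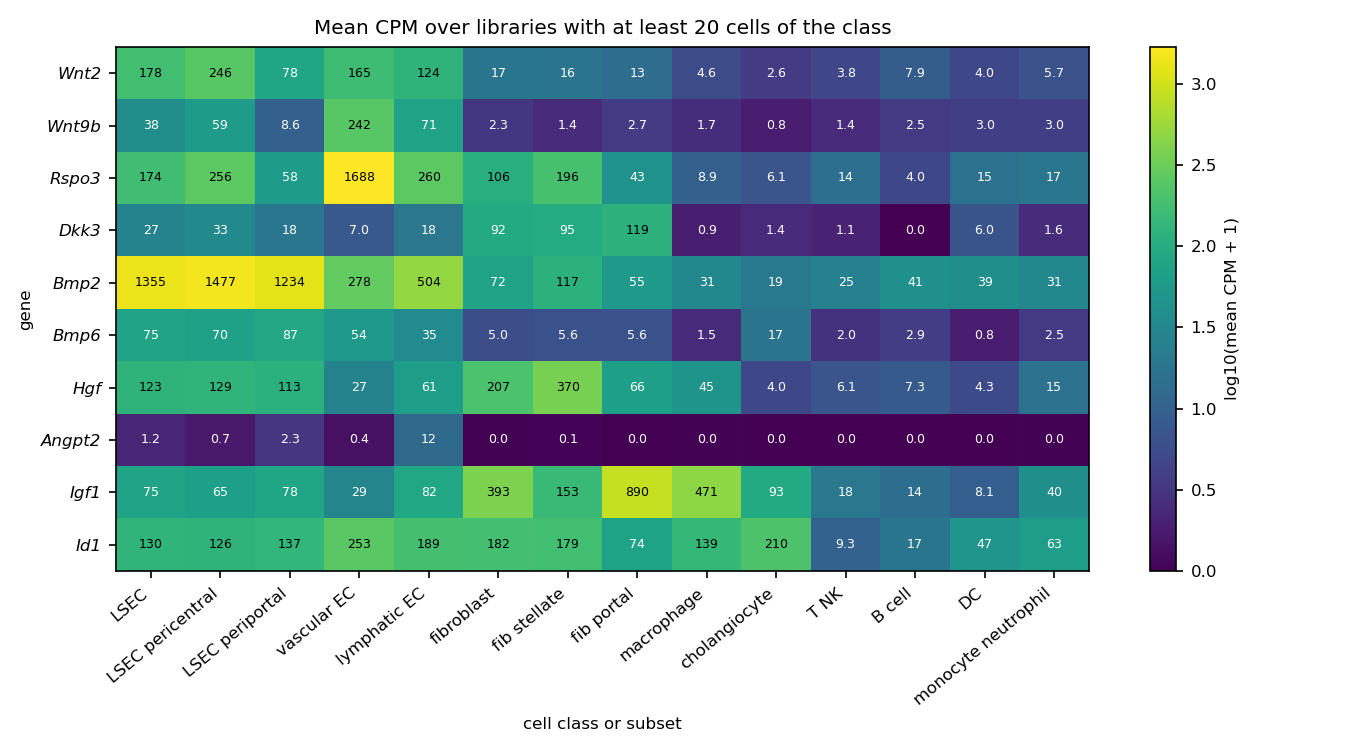
Heat map of the mean level of each member (rows) per cell class or subset (columns) over the atlas libraries with at least 20 cells of that class, coloured by log10 of the mean CPM plus 1 and printed as CPM. Rspo3 and Wnt9b stand highest in vascular endothelial cells, Bmp2 and Hgf are higher in LSEC than in those cells, and Igf1 is highest in portal-like fibroblasts and macrophages.

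The endothelial classes divided the members between them. In the 10 libraries that held enough of both classes, Rspo3 was 581 CPM at its lowest and 3085 CPM at its highest in vascular endothelial cells, with a median of 1760 CPM, and ran from 61.9 to 433.7 CPM in LSEC. The ranges did not overlap. Bmp2 stood the other way, at 931 to 2187 CPM in LSEC and 64.8 to 699 CPM in vascular endothelial cells, and Hgf likewise at 93.9 to 222.6 CPM against 6.45 to 62.9 CPM. Such non-overlap was found for 1.60% of 13654 genes with a mean of at least 1 CPM. Wnt9b was higher in vascular endothelial cells in 10 of 10 libraries, with medians of 232 and 42.8 CPM, although the ranges overlapped. Wnt2 did not separate the classes, with medians of 162 CPM in LSEC and 158 CPM in vascular endothelial cells. These differences were not tested, and because the LSEC gate was applied first, vascular cells with 3 or more UMIs of the LSEC genes count as LSEC.

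The members were next compared along the zones of the sinusoid. LSEC were divided by 7 genes that are not members into a pericentral-like subset (at least 2 UMIs of Kit, Thbd and Cdh13, and more than of the other set) and a periportal-like subset (Efnb2, Dll4, Ltbp4 and Ntn4), with 18020 and 10143 atlas cells. Wnt2, Wnt9b, Rspo3 and Dkk3 were each higher in the pericentral-like subset in 12 of 12 libraries.

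Wnt9b, a canonical Wnt ligand, ran from 16.1 CPM through a median of 54.4 CPM to 117 CPM in pericentral-like LSEC and from 1.74 through 8.93 to 17.98 CPM in periportal-like LSEC. The lowest pericentral-like value lay below the highest periportal-like one, so the ranges overlapped slightly across libraries. Within libraries the difference was 2.81 on the log2 scale (SE 0.12, adjusted p = 3.45e-12, edgeR quasi-likelihood test with library as block). Of 14750 genes, 17.1% passed that test (9.38% higher and 7.68% lower in the pericentral-like subset), and of the 10 members 8 did, 5 higher and 3 lower in the pericentral-like subset. Angpt2, among the 3 lower, entered the fit only through its periportal-like level, so its call is not support for a difference.

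Rspo3, which binds LGR receptors and keeps Wnt receptors at the surface, ran from 87.5 through 216 to 572 CPM in pericentral-like and from 1.49 through 54.8 to 119 CPM in periportal-like LSEC. Its difference was 2.15 (SE 0.22, edgeR adjusted p = 1.42e-06). Wnt2 ran from 102 through 222 to 431 CPM against 30.2 through 58.1 to 174 CPM, a difference of 1.78 (SE 0.06, edgeR adjusted p = 5.02e-13). The ranges of both genes overlapped across libraries, although each library gave the same order.

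Dkk3, a divergent member of a family of secreted Wnt modulators, was 12.1 through 26.7 to 65.2 CPM in pericentral-like LSEC and 4.64 through 15.5 to 35.3 CPM in periportal-like LSEC. Its difference of 0.96 (SE 0.07, edgeR adjusted p = 2.64e-08) was smaller than those of the Wnt ligands.

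The BMP ligands parted. Bmp2 was higher in pericentral-like LSEC in 10 of 12 libraries, with medians of 1295 and 1241 CPM and a log2 difference of 0.30 (SE 0.07, edgeR adjusted p = 0.00556), a call lost when cells reaching any other gate were left out (0.18, adjusted p = 0.0945). Bmp6 was lower in 11 of 12 libraries, with medians of 62.8 and 83.9 CPM and a difference of -0.29 (SE 0.08, edgeR adjusted p = 0.0189). Angpt2 was lower in 12 of 12 libraries at levels no higher than 1.20 CPM in pericentral-like and 4.06 CPM in periportal-like LSEC (-1.60, SE 0.21). It entered the fit only through its level in periportal-like LSEC, so its adjusted p is not given.

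Igf1 was lower in the pericentral-like subset in 11 of 12 libraries, with a difference of -0.25 (SE 0.07, edgeR adjusted p = 0.0184). Hgf, at medians of 119 and 109 CPM, did not pass the test (0.22, edgeR adjusted p = 0.102) except without the filter on low counts (0.23, edgeR adjusted p = 4.04e-05), and neither did Id1 (-0.07, edgeR adjusted p = 0.495). Markers of other cell types differed between the subsets as well. Of 9 cholangiocyte markers tested, 9 were lower in pericentral-like LSEC, with median sums of 1913 against 3114 CPM, and 7 of 10 hepatocyte markers were lower, with sums of 298 against 436 CPM. Of 10 fibroblast identity genes 7 were lower, with a median difference of -0.77 and median sums of 399 against 495 CPM. Of 10 leukocyte markers 5 were higher (4676 against 4029 CPM), and of 6 genes of central vein endothelium 4 were higher (1775 against 1013 CPM). The 8 member calls remained when LSEC reaching a non-endothelial gate were left out.

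**Figure D2:**
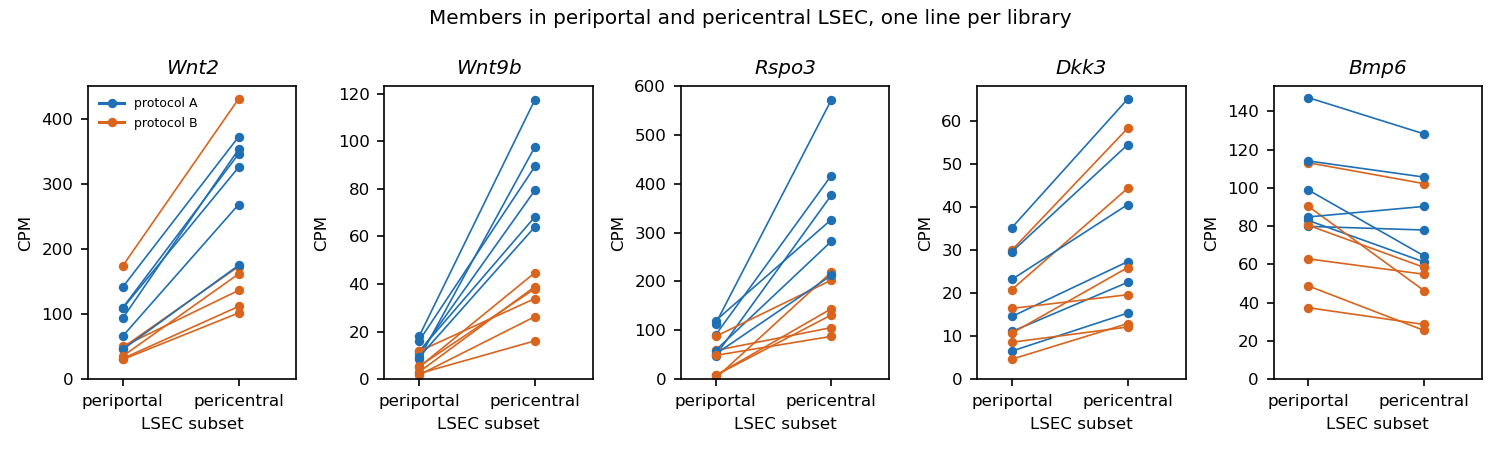
Levels of Wnt2, Wnt9b, Rspo3, Dkk3 and Bmp6 in periportal-like and pericentral-like LSEC, in CPM, with 1 line per atlas library coloured by protocol. The 12 lines of each of Wnt2, Wnt9b, Rspo3 and Dkk3 rise toward the pericentral-like side, and 11 of the 12 lines of Bmp6 fall.

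Other genes of the same pathways were counted over pathway lists. Of 39 tested genes of the Wnt list, 6 were higher and 9 lower in pericentral-like LSEC (median -0.20, against 0.02 over all genes). Those higher included the co-receptor Lrp5 (0.39, SE 0.05), the feedback inhibitor Nkd1 (0.40, SE 0.08) and the receptor Fzd4 (0.24, SE 0.05), while the receptor Fzd6 was lower (-0.24, SE 0.08). Of 33 BMP pathway genes 2 were higher and 5 lower, the latter including the receptor Bmpr2 (-0.25, SE 0.05) and the inhibitor Smad6 (-0.27, SE 0.07). Of 11 HGF pathway genes 1 was higher and 6 lower, among them the protease inhibitor Spint2 (-0.32, SE 0.07). Of 10 IGF pathway genes 5 were lower, among them the receptor Igf1r (-0.36, SE 0.04) and the binding protein Igfbp5 (-1.82, SE 0.27), and of 10 angiopoietin pathway genes 3 were higher, including the receptors Tek (0.25, SE 0.05) and Tie1 (0.21, SE 0.06), and 3 lower.

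The Wnt signals were then compared within single LSEC. After thinning to 1500 UMIs, 9 libraries held enough Wnt9b-positive LSEC, and of these cells a median of 55.9% carried Rspo3 (37.0% to 69.2%), against 7.12% of Wnt9b-negative LSEC (3.298% to 11.1%). Wnt2 was read in a median of 50.2% of Wnt9b-positive LSEC against 22.8% of the others, again higher in 9 of 9 libraries. Hgf went the other way, with 13.04% against 16.3%, and was higher among Wnt9b-positive cells in 1 of 9 libraries.

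Among the Wnt signals, Rspo3 and Wnt9b also had the largest share of their UMIs in few LSEC. The 1% of LSEC with the most Rspo3 UMIs held a median of 34.3% of that gene's UMIs per library, and 1671 LSEC carried 10 or more, up to 107 in a cell. For Wnt9b the median was 30.3%. Bmp2 had the lowest share, with 4.94% in the top 1%, and Wnt2 followed at 7.66%. The share also depends on a gene's own level, so its order over genes is not one of evenness alone. Bmp2 had 378138 UMIs in atlas LSEC and Wnt9b 12882, whereas Rspo3 and Wnt2 were closer, with 56252 and 51541. These shares are descriptions over cells and depend on depth, which differed between libraries. LSEC that also reached the vascular endothelial gate were kept here and in the comparison within single LSEC.

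Between LSEC and fibroblasts, 6 of the 9 members other than Angpt2 passed the test, 4 higher in LSEC and 2 higher in fibroblasts, where 46.8% of 15422 genes did, 25.4% higher and 21.4% lower in LSEC. Bmp2 was 931 through 1107 to 2187 CPM in LSEC and 14.7 through 61.2 to 191 CPM in the fibroblasts of the same 8 libraries, without overlap, as was found for 13.8% of 14227 genes with a mean of at least 1 CPM. Its difference was 4.44 (SE 0.34, edgeR adjusted p = 2.79e-07). Bmp6 was 32.4 to 132 CPM in LSEC and 1.77 to 9.52 CPM in fibroblasts, a difference of 3.98 (SE 0.19, edgeR adjusted p = 1.13e-08).

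Wnt2 was 72.4 to 248 CPM in LSEC and 5.14 to 28.5 CPM in fibroblasts (3.31, SE 0.23, edgeR adjusted p = 1.47e-07). Wnt9b was higher in LSEC in 8 of 8 libraries (3.81, SE 0.44, edgeR adjusted p = 1.2e-05). Angpt2 was read in fibroblasts of 1 of 8 libraries, with 2 UMIs and at 0.354 CPM. It entered the fit only through its level in LSEC, so its call is not counted and its fitted difference, which rests on the prior count, is not given.

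Dkk3 and Igf1 stood higher in fibroblasts than in LSEC, per UMI of the class. Dkk3 was 55.6 through 93.5 to 159 CPM in fibroblasts and 11.4 through 27.3 to 53.3 CPM in LSEC, without overlap (-1.68, SE 0.25, edgeR adjusted p = 0.000106). Igf1 was lower in LSEC in 7 of 8 libraries (-1.94, SE 0.34, edgeR adjusted p = 0.000409), and the difference was -5.14 without LSEC and fibroblasts that also reached another, non-endothelial gate. Rspo3 (0.61, SE 0.35, edgeR adjusted p = 0.175) and Hgf (-0.52, SE 0.29, adjusted p = 0.159) did not pass, with Hgf higher in fibroblasts in 6 of 8 libraries. Without the D25 protocol B library Rspo3 passed (0.91, edgeR adjusted p = 0.0237), and with a gate of 10 UMIs its difference was -0.68. Hgf passed in 2 of 14 alternatives, without D25 protocol A (-0.72, edgeR adjusted p = 0.0322) and without cells reaching any other gate (-1.11, edgeR adjusted p = 0.00190). Id1 did not separate the classes (-0.05, edgeR adjusted p = 0.898), but was higher in LSEC by 0.94 (edgeR adjusted p = 0.00300) without cells that reached another, non-endothelial gate.

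Other genes of these pathways were counted in the same comparison. Of 51 Wnt pathway genes 7 were higher and 33 lower in LSEC (median -2.65, against 0.09 over all genes), with the inhibitors Sfrp1 (-7.43, SE 0.45) and Wif1 (-7.04, SE 0.44) and the amplifier Rspo1 (-6.78, SE 0.56) among the lower. Of 40 BMP pathway genes 7 were higher and 24 lower, including the antagonists Nbl1 (-6.39, SE 0.34) and Fst (-5.65, SE 0.30) and the ligand Gdf2 (-4.31, SE 0.54). Of 11 IGF pathway genes 1 was higher and 10 lower, including the binding proteins Igfbp6 (-7.17, SE 0.67), Igfbp3 (-5.87, SE 0.46) and Igfbp5 (-5.75, SE 0.70). Met, the receptor of HGF, was lower in LSEC (-1.92, SE 0.26), and of 11 HGF pathway genes 7 were higher and 2 lower. Of 11 angiopoietin pathway genes 5 were higher, among them Tie1 (4.58, SE 0.38), Ptprb (4.94, SE 0.43), Kdr (3.65, SE 0.34) and Flt1 (3.77, SE 0.23), and 3 lower.

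Fibroblasts themselves divided over Hgf and Igf1. In the 5 libraries with 20 cells of each subset, Hgf was 167 through 465 to 552 CPM in stellate-like fibroblasts (Lrat, Colec11, Reln and Ecm1) and 37.1 through 68.3 to 80.3 CPM in portal-like fibroblasts (Dpt, Pi16, Clec3b and Mfap4), without overlap. Igf1 was the reverse, at 139 to 259 CPM against 695 to 1035 CPM. Rspo3 was 92.4 to 316 CPM in stellate-like and 24.9 to 65.6 CPM in portal-like fibroblasts. Id1 was 117 to 200.2 CPM against 29.1 to 113 CPM, so that these 4 members did not overlap between the subsets, as 4.03% of 14035 genes with a mean of at least 1 CPM did not. No test was run on the subsets.

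**Figure D3:**
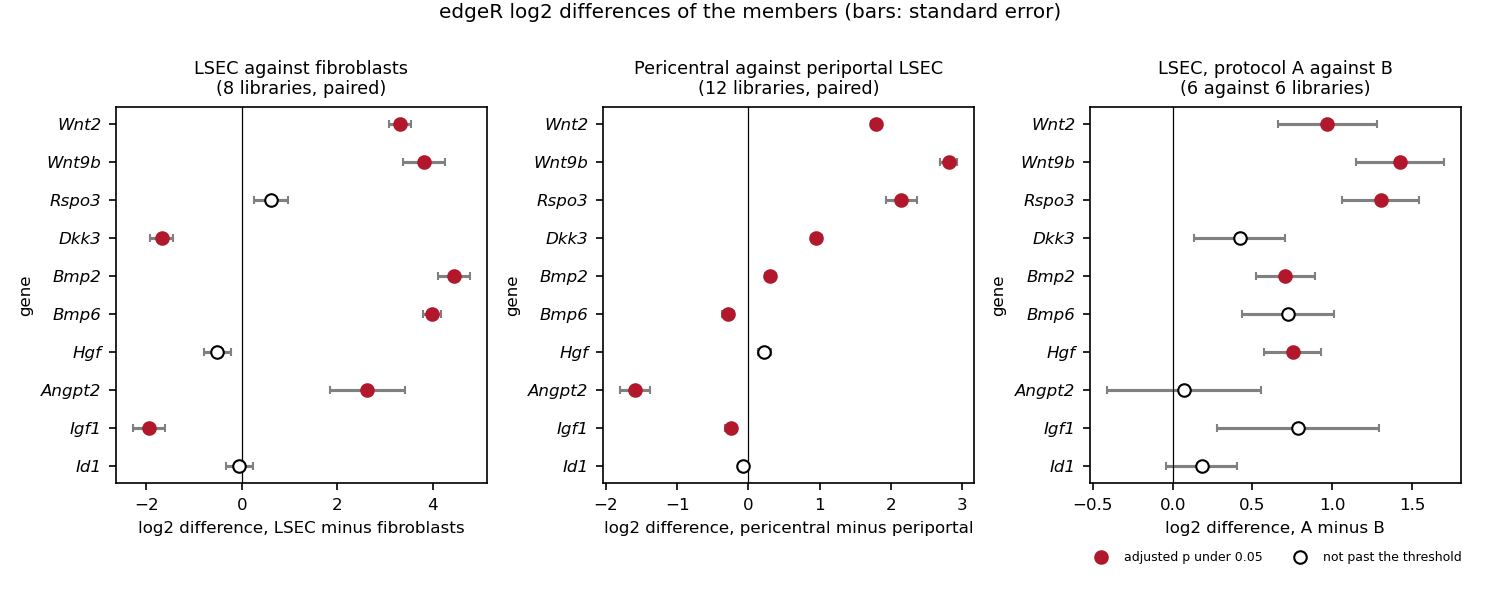
Log2 differences of the members fitted with edgeR (points) and their standard errors (bars) between LSEC and fibroblasts, between pericentral-like and periportal-like LSEC and between protocols, with filled points at an adjusted p under 0.05. Wnt2, Wnt9b and Bmp2 lie to the right of 0 and are filled in all 3 panels, and the Angpt2 point of the first panel rests on the prior count and entered only through LSEC. In the second panel the Angpt2 point entered only through periportal-like LSEC.

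Over the diet, no member passed the test in LSEC, and Wnt2 and Dkk3 came nearest. Wnt2 was 248 and 334 CPM at D0. At D3 and D5 it was 259 and 279 CPM in protocol A and 70.8 and 134 CPM in protocol B. At progression it ran from 72.4 through 113 to 237 CPM, so that both D0 libraries lay above all 6 progression libraries. The fitted difference of progression from D0 was -1.33 on the log2 scale (SE 0.41, unadjusted p = 0.00718, adjusted p = 0.135, edgeR quasi-likelihood test with protocol as covariate). Of 15471 genes 91, or 0.588%, passed, 0.362% being lower. An unadjusted p under 0.05 was found for 3 members (Wnt2, Angpt2 and Igf1), as for 16.8% of genes, and DESeq2 called 1 member and 6.04% of genes. Angpt2 had 2 UMIs in each D0 library and was testable only through the diet libraries, so its unadjusted p is not support for a difference.

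That Wnt2 difference rested on the D0 library of protocol B. Within protocol A progression differed from D0 by -0.17, and within protocol B by -2.05, on TMM-scaled levels. Without the D0 library of protocol B the fit gave -0.09 (edgeR adjusted p = 0.928), and without that of protocol A it gave -2.11 (edgeR adjusted p = 0.0317). It was called with DESeq2 (-1.35, adjusted p = 0.0303) and, with genes of low counts kept, by edgeR (-1.29, adjusted p = 0.0110), and these 3 were the calls among 21 alternatives. In pericentral-like LSEC alone it was -1.16 (SE 0.35, edgeR adjusted p = 0.125) and in periportal-like LSEC alone -1.59 (SE 0.39, edgeR adjusted p = 0.120). The D0 library of protocol A had the highest hepatocyte marker sum in LSEC, 1833 CPM against 185 to 753 CPM elsewhere, and the highest sum of immediate early genes, 24248 CPM against 6670 to 13449 CPM, whose part in these values was not tested.

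Dkk3 was 20.8 and 36.4 CPM at D0. It was 9.95 to 18.98 CPM at onset, with a median of 11.7 CPM, and 18.7 through 38.2 to 53.3 CPM at progression. Onset and progression overlapped only in the highest onset and the lowest progression library. Progression exceeded onset by 1.40 (SE 0.33, unadjusted p = 0.00108, edgeR adjusted p = 0.198), where 0.0194% of genes passed. An unadjusted p under 0.05 was found for 13.8% of genes. DESeq2, which called 2.67% of genes, called Dkk3 (1.42, adjusted p = 0.00324), as did edgeR without the filter on low counts (1.37, adjusted p = 0.000993), 2 of 21 alternatives, and within protocols the difference was 1.46 in A and 1.21 in B.

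Markers of other cell types were read in the same LSEC sums, and their part in Dkk3 was not tested. The median difference of progression from onset was 2.33 over 10 fibroblast identity genes and 2.20 over 9 cholangiocyte markers, against 0.0078 over all genes, although no marker of either list passed. For onset against D0 the median of the fibroblast identity genes was -2.74. Their summed level was 1161 and 303 CPM at D0, 327 to 494 CPM at onset and 365 to 627 CPM at progression. Without LSEC that also reached a non-endothelial gate, progression exceeded onset by 1.70 in Dkk3 (edgeR adjusted p = 0.104).

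For onset against D0 0.0517% of genes passed with edgeR, 0.0259% higher and 0.0259% lower, and no member did. An unadjusted p under 0.05 was found for 2 members, Dkk3 (0.0263) and Angpt2 (0.0440), and for 10.9% of genes, while DESeq2 called no member and 1.60% of genes. The Dkk3 difference of -1.09 was -1.88 without D0 of protocol A and -0.047 without D0 of protocol B. Angpt2 had 2 UMIs in each D0 library, and its fitted difference was 0.27 without D0 of protocol A and 3.65 without D0 of protocol B. Here too it was testable only through the diet libraries, so its unadjusted p is not support for a difference.

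Rspo3, Wnt9b and Bmp2 passed in no comparison over the diet. Rspo3 was 236 and 99.7 CPM at D0, ranged from 82.6 to 434 CPM at onset and from 61.9 to 243 CPM at progression. Wnt9b was 48.4 and 17.99 CPM at D0 and between 7.86 and 87.8 CPM later. Bmp2 was 2187 and 1339 CPM at D0 and between 701 and 1977 CPM later, with a fitted difference of -0.42 at progression (SE 0.25, edgeR adjusted p = 0.436).

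Bmp6 was 77.2 and 113 CPM at D0 and ran from 32.4 to 132 CPM at progression, with differences of 0.76 within protocol A and -1.29 within protocol B. Hgf was 136 and 77.5 CPM at D0 and ran from 95.03 through 116 to 223 CPM at progression (0.50, SE 0.26, edgeR adjusted p = 0.365). Igf1 was 80.4 and 2.77 CPM at D0 and ran from 62.6 to 184 CPM at progression (1.68, SE 0.75, edgeR adjusted p = 0.290), with 6 UMIs in D0 of protocol B. That difference was 4.96 without D0 of protocol A, 0.78 without D0 of protocol B and 0.24 without LSEC that also reached a non-endothelial gate, none of them past the threshold. It passed in 1 of 21 alternatives, without the filter on low counts (1.73, edgeR adjusted p = 0.0269). Id1, the BMP target, was 171 and 95.05 CPM at D0 and 90.3 to 202 CPM at progression (0.24, SE 0.32, edgeR adjusted p = 0.759).

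Few pathway genes passed over the diet. Of 42 Wnt pathway genes tested in LSEC, Tcf7, a transcription factor of the pathway chosen after its value was seen, was lower at progression than at D0 (-1.64, SE 0.31, edgeR adjusted p = 0.0426). Tcf7 is also known from T cells, and in the same LSEC sums 1 of 10 leukocyte markers, the B cell gene Cd79a, and 2 of 10 hepatocyte markers were lower, while the T cell gene Cd3e had a difference of -1.30 without passing. Their part in Tcf7 was not tested. None of 33 BMP, 11 HGF, 10 angiopoietin and 11 IGF pathway genes passed in that comparison, and none of any list passed for onset against D0 or progression against onset.

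**Figure D4:**
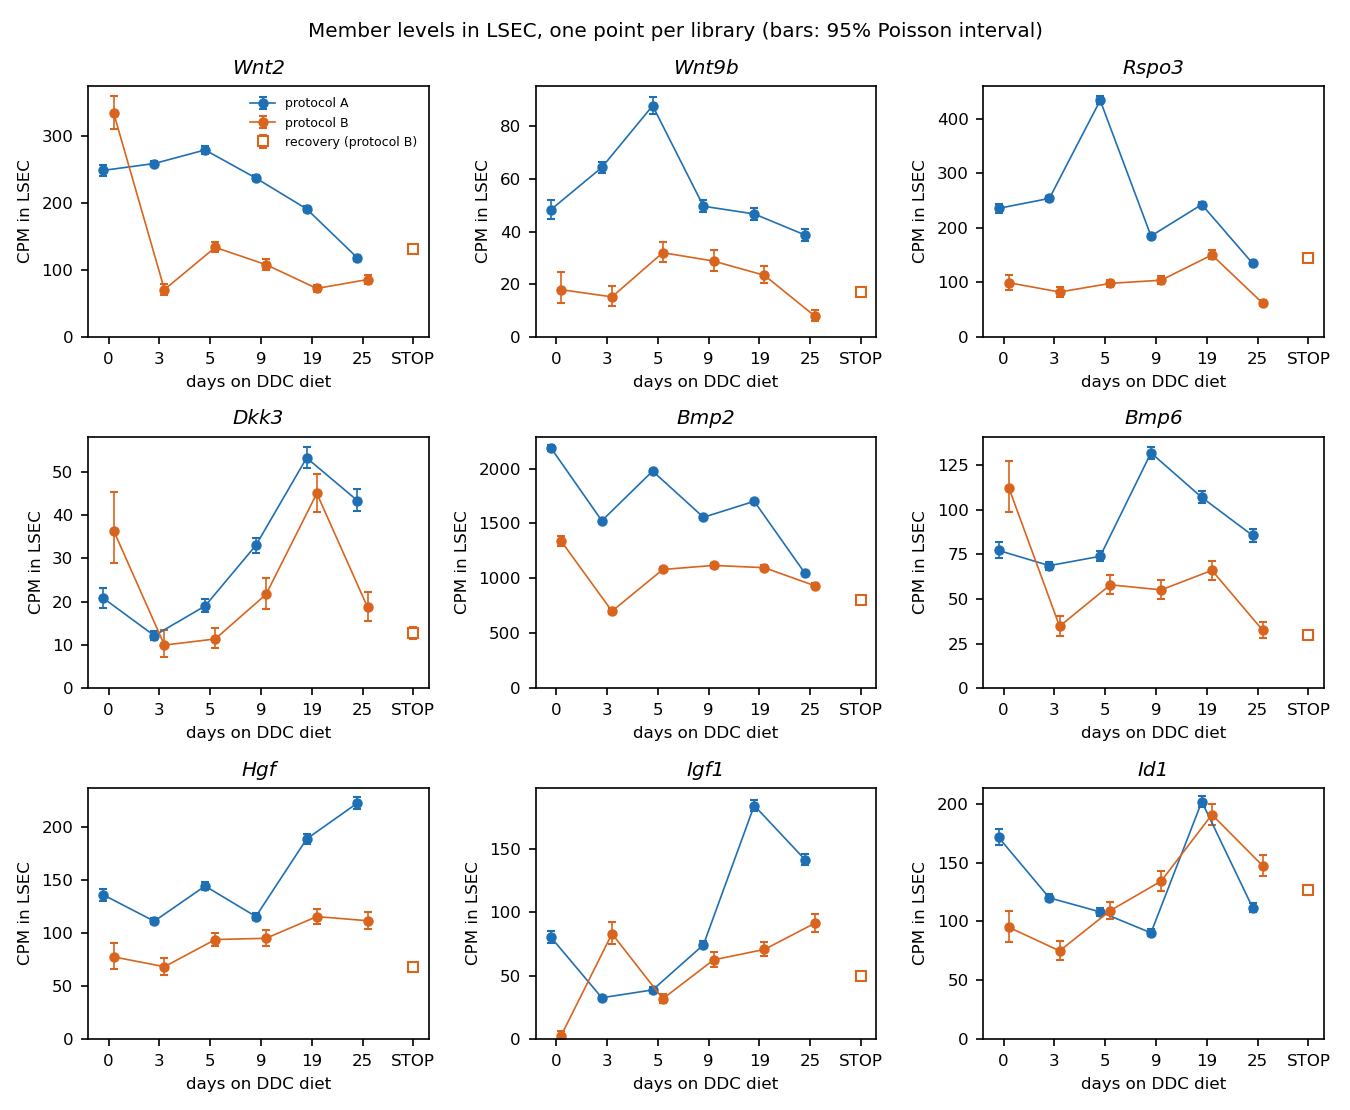
Level in LSEC of every member but Angpt2, in CPM, by days on the diet, with 1 point per library, bars for the 95% Poisson interval, protocols A and B in separate colours and STOP at the right. Protocol A lies above protocol B for Rspo3, Hgf and Wnt9b at every time point, while Wnt2 at D0 is the exception among its time points.

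Between isolation protocols, Wnt2, Wnt9b, Rspo3, Bmp2 and Hgf differed in LSEC. Of the 10 members these 5 were higher in LSEC of protocol A than of protocol B, where 10.5% of genes were higher and 21.8% differed in either direction. Rspo3 was 135 through 239 to 434 CPM in protocol A and 61.9 through 99.0 to 150 CPM in protocol B, a difference of 1.30 (SE 0.24, edgeR adjusted p = 0.00380). Wnt9b was 38.8 to 87.8 CPM in A and 7.86 to 32.0 CPM in B, without overlap, as was found for 8.14% of 13602 genes with a mean of at least 1 CPM (1.42, SE 0.28, edgeR adjusted p = 0.00471).

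Bmp2 ran from 1045 to 2187 CPM in A and from 701 to 1339 CPM in B (0.71, SE 0.18, edgeR adjusted p = 0.0191), Hgf from 111 to 223 CPM and from 68.2 to 116 CPM (0.75, SE 0.18, edgeR adjusted p = 0.0122). Wnt2 passed narrowly (0.97, SE 0.31, edgeR adjusted p = 0.0440) and failed when any of 9 libraries was left out (both protocols of D3, D5, D9 and D19, and D25 of protocol B), with values of 0.80 to 1.05 among those 9. Bmp6 had a similar difference without passing (0.72, edgeR adjusted p = 0.0928), and it passed in 6 of 20 alternatives, without D0 of protocol A (1.01) or of protocol B (1.03), with DESeq2, without the filter on low counts, with a gate of 10 UMIs and in pericentral-like LSEC alone. Dkk3 passed without D0 of protocol B (0.71, edgeR adjusted p = 0.0475) and Igf1 without the filter on low counts (0.87, edgeR adjusted p = 0.0479).

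Markers of other cell types in the LSEC sums differed between protocols as well. The summed leukocyte markers in LSEC were 1584 through 2709 to 4785 CPM in protocol A and 4204 through 5131 to 6821 CPM in protocol B, and 6 of 10 leukocyte markers were lower in A. Of 9 LSEC identity genes 8 were higher in A. So were 4 of 6 genes of central vein endothelium, with a median difference of 1.11, and 4 of 10 hepatocyte markers, with a median of 0.97. Without LSEC that also reached a non-endothelial gate, an alternative chosen after seeing the data, 103 genes differed and none of the 5 members passed. Their differences were then 0.77 for Rspo3 (edgeR adjusted p = 0.409), 1.02 for Wnt9b (0.0624), 0.16 for Bmp2 (0.771), 0.05 for Hgf (0.968) and 0.39 for Wnt2 (0.634). In periportal-like LSEC alone Hgf passed and the other 4 did not.

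Other pathway genes were counted in the full sums. Of 33 BMP pathway genes 10 were higher in protocol A and 0 lower, among them Bmp4 (1.65, SE 0.41) and the receptors Bmpr2 (0.88, SE 0.18) and Eng (0.81, SE 0.18). Of 42 Wnt pathway genes 10 were higher and 4 lower, and of 10 angiopoietin pathway genes 6 were higher, among them Tek (0.89, SE 0.18) and Kdr (0.84, SE 0.18). Plaur, the urokinase receptor, was lower in A (-0.92, SE 0.20), as was Spint2 (-0.65, SE 0.14), the 2 lower genes of 11 in the HGF list, in which 1 was higher. Of 11 IGF pathway genes 2 were higher.

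In fibroblasts no member passed the test over the diet or between protocols. Angpt2 was too low to test. At D0 a single library held enough fibroblasts, and at onset another single one, from the opposite protocol, so that the stages were joined only through the protocol term. With edgeR, 0%, 0.00834% and 0% of 11986 genes passed for onset against D0, progression against D0 and progression against onset. Of the 9 members tested, 0, 0 and 1 were under 0.05 before adjustment, beside 3.71%, 4.89% and 3.57% of genes. DESeq2 called 0 members in each, and 0.00834%, 0.0751% and 0.025% of genes. In simulated counts with known changes these 3 tests recovered few or none of the changed genes, so the lack of calls does not show that the members stayed at their D0 level.

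Hgf was 165 CPM in fibroblasts of D0 (protocol A) and 259 CPM at D5 (protocol B). At progression it was 144, 223 and 94.4 CPM at D9, D19 and D25 of protocol A and 285, 86.2 and 396 CPM in protocol B. The D0 value lay inside the progression range. Bmp2 was 191 CPM at D0, 75.0 CPM at D5 and 14.7 to 114 CPM at progression, so the D0 library was the highest (-1.01 for progression against D0, SE 0.54, edgeR adjusted p = 0.948).

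Between protocols 0.192% of genes differed in fibroblasts, 0.167% being higher and 0.025% lower in protocol A. No member did with edgeR, although the unadjusted p was under 0.05 for 4 members, as for 8.88% of genes, and DESeq2 called 2 members and 1.45% of genes. Wnt9b, 1 of those 4, had 32 UMIs in atlas fibroblasts and a median of 0 CPM in protocol B (highest 2.42 CPM). It was testable only through its level in protocol A, so its unadjusted p is not support for a difference. Igf1 was 525.8 to 732 CPM in protocol A and 69.4 to 316 CPM in protocol B without overlap, as was found for 6.67% of 14028 genes with a mean of at least 1 CPM. Its difference was 1.88 (SE 0.54, edgeR adjusted p = 0.256), and it passed without the D25 library of protocol B (2.99, edgeR adjusted p = 0.00777) and with DESeq2. Bmp2 (1.92, edgeR adjusted p = 0.160) passed in 3 of 14 alternatives, with DESeq2 (1.99), without the filter on low counts (1.90) and with a gate of 10 UMIs (2.49). The proportions of fibroblast subsets varied too. At D9 there were 60 stellate-like and 130 portal-like cells in protocol A, and 11 and 8 in protocol B. At D19 there were 59 and 72 in A, and 32 and 18 in B. At D25 there were 56 and 31 in A, and 318 and 50 in B. D0 of protocol A held 82 and 213. The part of these proportions in Igf1 and Hgf was not tested. Endothelial genes were read in the fibroblast sums as well, and few of them passed. The 9 LSEC identity genes had a median difference of 3.36 (1 passed), with sums of 479 to 935 CPM in protocol A and 303 to 529 CPM in protocol B, and the 6 genes of central vein endothelium had a median of 3.66 (1 passed). Their part in the 4 members with an unadjusted p under 0.05 (Wnt9b, Bmp2, Bmp6 and Igf1) was not tested.

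Whether the diet response differed between LSEC and fibroblasts was tested as an interaction. No member and 0% of 16686 genes passed with edgeR, 2 members (Wnt2, unadjusted p = 0.0230, and Wnt9b, unadjusted p = 0.0264) lay under 0.05 before adjustment, as did 613 genes (3.67%), and DESeq2 called 2 genes (0.012%) and no member. Few of the changed genes were recovered by this test in simulated counts.

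After withdrawal of the diet, the STOP library was set beside D19 of the same protocol. There is 1 library on each side, no test was run, and the intervals cover counting error only. In LSEC Wnt2 was 131 CPM in STOP and 72.4 CPM at D19, a ratio of 1.80 (95% interval 1.66 to 1.96). The STOP value lay within the 70.8 to 134 CPM of the protocol B libraries on diet. The ratio was 2.24 (1.99 to 2.53) without LSEC that also reached a non-endothelial gate, which were 58.4% in STOP and 44.7% at D19, and 3.85 (2.60 to 5.89) without those reaching any other gate. Rspo3 had a ratio of 0.966 (0.907 to 1.03), and Wnt9b one of 0.724 (0.613 to 0.858). Without cells reaching any other gate these were 2.01 (1.42 to 2.88) for Rspo3, on 132 UMIs in STOP, and 1.29 for Wnt9b, on 17 UMIs. That setting kept only 137 of 1797 LSEC in STOP and 83 of 806 at D19. It left out LSEC that also reached an endothelial gate, such as the 1262 in STOP that reached the lymphatic one, so the cells kept may not stand for LSEC at large.

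Dkk3 was 12.7 CPM in STOP and 45.0 CPM at D19, a ratio of 0.282 (0.243 to 0.327), again within the 9.95 to 45.0 CPM of protocol B on diet. Bmp6 was 30.0 CPM against 66.1 CPM (0.454, 0.408 to 0.507) and lay below the 32.4 CPM that was the lowest of the atlas. Hgf was 67.7 CPM against 116 CPM (0.586, 0.543 to 0.634), just below the 68.2 CPM that was its lowest atlas value. Without LSEC that also reached a non-endothelial gate, both STOP values lay within the atlas ranges. Bmp6 was then 58.2 CPM (atlas 49.2 to 166 CPM) and Hgf 144 CPM (atlas 112 to 290 CPM). The ratio was 0.730 for Bmp2, 0.663 for Id1 and 0.705 for Igf1, and the last turned to 1.38 (0.861 to 2.27) without cells reaching a non-endothelial gate. Without cells reaching any other gate the ratio was 0.991 (0.879 to 1.12) for Bmp2 and 0.801 (0.566 to 1.14) for Hgf.

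In fibroblasts, 511 in STOP and 64 at D19, Rspo3 was 327 CPM against 21.0 CPM, with 2285 and 10 UMIs and a ratio of 15.5 (8.43 to 32.5). The STOP value was above all 8 atlas libraries, which ran from 21.0 to 232 CPM. Hgf was 339 CPM against 86.2 CPM (3.93, 2.89 to 5.49) and Igf1 347 CPM against 69.4 CPM (5.01, 3.56 to 7.29), both within the atlas ranges. Id1 and Wnt2 stood the other way, Id1 at 95.2 CPM against 235 CPM (0.404, 0.331 to 0.499) and Wnt2 at 2.14 CPM against 14.7 CPM on 15 and 7 UMIs (0.146, 0.0559 to 0.423). Without cells reaching another, non-endothelial gate the Igf1 ratio was 2.78 (1.68 to 4.98) and that of Id1 was 1.08. Stellate-like cells were 401 of the 511 fibroblasts in STOP and 32 of the 64 at D19, and their part in these ratios was not tested.

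**Figure D5:**
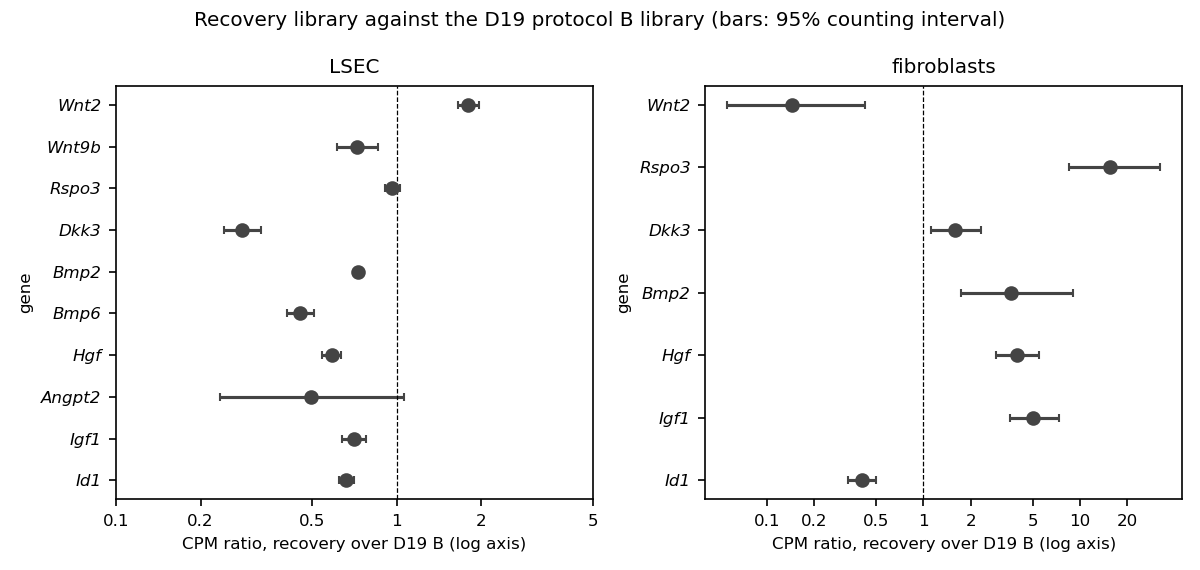
Ratio of CPM in STOP over D19 of protocol B for each member, on a log axis, in LSEC (left) and in fibroblasts (right, where Wnt9b, Bmp6 and Angpt2 had too few UMIs to be drawn), with bars for 95% counting intervals. In LSEC the Wnt2 ratio is above 1 and those of Dkk3, Bmp6 and Hgf are below 1, and in fibroblasts Rspo3 has the highest ratio.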

How the data were processed

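For 13 libraries the authors deposited unnormalized UMI counts, 1 matrix of genes by barcodes each. The libraries were made with 3′ v3.1 droplet kits. The processing notes name kallisto and the build GRCm38, while the kallisto version, the annotation and the use of strand are not given in the sources used here. No barcode filter had been applied, so each library holds 630081 to 1700435 barcodes. The 10 members and all gene lists were chosen with earlier results of these data known.

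Barcodes with at least 1500 UMIs were kept. A barcode with 3 or more UMIs of the 4 LSEC genes was LSEC, and any other went to the class with the highest sum of at least 3 UMIs over its own 4 genes (hepatocytes 20), ties and the rest being unassigned. Subsets of LSEC and fibroblasts needed 2 UMIs and the higher sum. No doublet caller was run, and cells that reach several gates were examined as an alternative instead. Raw counts were summed per library and class with at least 20 cells, and CPM are these sums scaled to 1000000 UMIs of the class. The 3′ counts were not divided by gene length, so levels of different genes are not ranked. Sums were tested with edgeR 4.0.16 (filterByExpr, TMM scaling, quasi-likelihood test, Benjamini-Hochberg adjustment over all genes tested) in R 4.3.3, at an adjusted p under 0.05. Comparisons over the diet and between protocols had stage and protocol as terms, and comparisons within libraries (LSEC against fibroblasts, LSEC subsets) had library as block. DESeq2 1.42.0, a minimum of 3000 UMIs, a gate of 10 UMIs, no filter, no protocol term, the removal of cells reaching other gates and the removal of each library in turn were the alternatives. Libraries were grouped by days on the diet, and STOP entered no test. Intervals are exact Poisson at 95% and, like all counting intervals, cover counting error only.

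The tests were checked on simulated counts with known changes, of which those of fibroblasts over the diet and of the interaction recovered few or none. In LSEC 56% of changed genes were recovered for onset against D0 and 67.5% for progression against D0. Between protocols in fibroblasts 38.5% were recovered. By rule the text names the 10 members and, of each pathway list, called genes whose mean log2 CPM reached 4, up to the 4 with the largest differences per comparison. Gene positions come from the GENCODE gene models of GRCm38 and promoter sequences from RefSeq.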

Additional observations from a re-analysis of the deposited data

Results flagged for a closer look

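Among 30 groups of 4 or 6 libraries, 3 held a library far from the others, where chance gives about 1 in 20. Angpt2 in LSEC at progression was lowest at D25 of protocol B, at 0.421 CPM, and Angpt2 in fibroblasts at progression was read in that library alone, at 0.354 CPM. Igf1 in LSEC at onset was highest at D3 of protocol B, at 83.3 CPM, in the library with the fewest LSEC.

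Protocols moved in opposite directions for 4 members in LSEC, judged by every diet library of a stage lying on the same side of the D0 library of its protocol, and these differences were not tested. Wnt2 at onset lay 20.3 CPM above D0 in protocol A, and in protocol B the difference was -232 CPM. Rspo3 at onset lay 108 CPM above D0 in protocol A, with a difference of -9.17 CPM in protocol B. That last difference is small beside the D0 value of protocol B, 99.7 CPM on 216 UMIs, and counting error was not weighed. Bmp6 at progression lay 31.0 CPM above D0 in protocol A, with -61.4 CPM in protocol B. Igf1 at onset had a difference of -44.6 CPM in protocol A and lay 54.8 CPM above D0 in protocol B. Each protocol has 1 library at D0, so these differences rest on a single library per protocol.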

How the results depend on the processing

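The calls of Wnt2, Wnt9b, Rspo3 and Dkk3 between LSEC subsets and those of Wnt2, Wnt9b, Dkk3, Bmp2, Bmp6 and Igf1 between LSEC and fibroblasts held in every alternative run, whereas calls between protocols did not. Counts of genes called are given in the order onset against D0, progression against D0, progression against onset and protocols. In LSEC they were 8, 91, 3 and 3372. They became 248, 935 and 413 with DESeq2, 297, 576 and 531 with no filter, 51 (progression against D0) and 0 (progression against onset) at 3000 UMIs, 1, 22 and 0 without a protocol term, 2, 26, 1 and 1614 in periportal-like LSEC alone, 1, 43, 12 and 71 without cells reaching another gate, and 3 (onset), 5 (progression against onset) and 103 (protocols) without those reaching a non-endothelial gate. In fibroblasts they were 0, 1, 0 and 23, and became 1, 9, 3 and 174 with DESeq2, 1, 7, 2 and 207 with no filter, and for protocols 0 at 3000 UMIs, 51 with a gate of 10 UMIs, 489 without another gate and 0 without a non-endothelial gate. Progression against onset in fibroblasts gave 1 without a protocol term and 3 without another gate. LSEC against fibroblasts gave 7216 genes, and 4553 without another gate. LSEC subsets gave 2516, 1572 with a gate of 10 UMIs and 752 without another gate. The interaction gave 0, and 2 with DESeq2. The cause of these changes was not tested, other than that fewer cells enter the last alternatives.

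Leaving out single libraries, the counts ranged from 0 (without D5 of protocol B) to 39 (without D0 of protocol A) for onset against D0 in LSEC, 35 (without D0 of protocol B) to 276 (without D0 of protocol A) for progression against D0, 0 to 4 for progression against onset and 2207 to 3608 for protocols, and in fibroblasts from 0 to 1 for progression against D0 and 2 to 37 (without D25 of protocol B) for protocols. Log2 differences crossed 0 in LSEC at onset for Wnt2 (-1.65 to 0.39), Bmp6 (-1.47 to 0.41), Hgf (-0.026 to 0.29), Igf1 (-0.31 to 3.85) and Id1 (-0.35 to 0.058), and for progression against D0 for Wnt9b (-0.080 to 0.28), Rspo3 (-0.26 to 0.19), Dkk3 (-0.48 to 1.34) and Bmp6 (-1.18 to 0.69). They did so for Angpt2 for progression against onset (-0.23 to 0.39) and protocols (-0.19 to 0.34), and for Id1 in LSEC against fibroblasts (-0.23 to 0.17). In fibroblasts they did so for Hgf (-0.35 to 0.59) and Igf1 (-0.040 to 1.37) at onset, Rspo3 (-0.18 to 0.48) and Hgf (-0.23 to 0.33) for progression against D0, Bmp6 (-0.16 to 0.78) and Hgf (-0.52 to 0.45) for progression against onset, Rspo3 (-0.051 to 1.55) and Dkk3 (-0.15 to 0.71) for protocols, and Hgf in the interaction (-0.28 to 0.25). The interaction without D0 of protocol A, and the fibroblast comparisons that need the only D0 or onset library, gave no value without it. No comparison had replicate numbers that tie libraries across groups.

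Signs also turned under other settings. With DESeq2 this held for Hgf (-0.12) and Angpt2 (1.58) in the interaction and Hgf (0.045) in fibroblasts at onset. Angpt2 had 2 UMIs in atlas fibroblasts, both in D25 of protocol B, so the sign of its interaction value cannot be read. At 3000 UMIs signs turned for Wnt9b (-0.14) in LSEC, progression against D0, and with no filter for Hgf (-0.043) in the interaction. With a gate of 10 UMIs it held for Rspo3 in LSEC against fibroblasts (-0.68) and in LSEC for progression against D0 (0.30), for Rspo3 (0.31) and Bmp6 (0.12) in the interaction, and in fibroblasts for Bmp6 (-0.94, progression against onset), Wnt9b (0.60) and Hgf (-0.080, both progression against D0). Without a protocol term it held in fibroblasts for Wnt9b (-1.91), Bmp2 (-1.39), Bmp6 (-0.13), Hgf (0.62) and Igf1 (-1.63) at onset and Hgf (-0.21) and Igf1 (0.78) for progression against onset. In pericentral-like LSEC alone it held for Rspo3 (-0.21, onset), Bmp2 (0.093, progression against onset) and Wnt9b (-0.26, progression against D0), and in periportal-like LSEC alone for Wnt9b (-0.029) and Hgf (-0.057) at onset, Wnt9b (0.12), Rspo3 (0.26) and Angpt2 (-0.017) for progression against onset and Rspo3 (0.88) for progression against D0. Without cells reaching another gate it held in LSEC for Igf1 (-1.58, onset), Bmp2 (0.046, progression against onset), Rspo3 (0.28) and Id1 (-0.17, both progression against D0) and Dkk3 (-0.45, protocols), for Rspo3 (-0.14) and Id1 (0.57) in LSEC against fibroblasts, Id1 (0.20) between LSEC subsets, and Wnt9b (-0.15) and Hgf (-0.082) in the interaction. In fibroblasts the same setting gave Wnt2 -3.48, Hgf 0.28 and Igf1 -0.41 at onset, Wnt2 4.26 and Igf1 0.12 for progression against onset, and Rspo3 -0.32, Dkk3 -0.69 and Id1 0.031 for protocols. Its recovery ratios were 1.29 for Wnt9b and 2.01 for Rspo3 in LSEC (the latter 1.05 with a gate of 10 UMIs) and 0.97 for Dkk3 and 1.12 for Id1 in fibroblasts. Without cells reaching a non-endothelial gate it held in LSEC for Igf1 (-0.98, onset), Bmp2 (0.057, progression against onset), Rspo3 (0.055) and Id1 (-0.092, both progression against D0), Dkk3 (-0.10) and Angpt2 (-0.75, both protocols), Id1 in LSEC against fibroblasts (0.94) and Id1 between subsets (0.0031). In fibroblasts it gave Wnt2 -0.063, Wnt9b -2.64, Bmp6 -2.21 and Hgf 0.61 at onset, Wnt2 0.70, Wnt9b 0 and Hgf -0.44 for progression against onset, and Dkk3 -0.14 for protocols. The recovery ratios were then 1.38 for Igf1 in LSEC and 1.08 for Id1 in fibroblasts. None of these members had passed the test in the comparison concerned as reported, Id1 at 0.94 in LSEC against fibroblasts passed under that alternative, and recovery had no test.

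Depth limits what the sums show for Angpt2, of which no LSEC held more than 6 UMIs, and for fibroblasts at D0 and onset. Differences between protocols cannot be told apart from sort and kit, and D0 has 1 library per protocol.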

Other observations

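Genes whose levels ran most like those of 3 members were listed by Pearson correlation of log2 CPM (1 CPM added) among genes with a mean of at least 20 CPM. Across the 12 LSEC sums, Wnt2 was followed most closely by Tcn2 (0.970), Pigk (0.966) and Cd300lg (0.965) of 6503 genes. Bmp2 was followed by Tdrp (0.946), Fcgr2b (0.945) and Plpp3 (0.945). Across the 8 fibroblast sums, Hgf was followed by Afap1 (0.966), Bex3 (0.964) and Plin3 (0.963) of 6500 genes. The points share protocol, depth and sort, and no test was made.

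Lymphatic endothelial cells (Ccl21a, Mmrn1, Pdpn and Flt4, in 7 libraries) had the highest mean level of Angpt2, 12.2 ± 13.3 CPM (SD, n = 7), against 1.22 ± 0.583 CPM in LSEC (SD, n = 12), and of all Angpt2 UMIs in cells 7.46% lay in lymphatic endothelial cells and 86.2% in LSEC. In macrophages Igf1 was 471 ± 174 CPM (SD, n = 12) and ran from 119 to 796 CPM. Id1 was 210 ± 119 CPM in cholangiocytes (SD, n = 12) and 253 ± 123 CPM in vascular endothelial cells (SD, n = 10). In LSEC, Wnt9b-positive cells after thinning carried Dkk3 in a median of 6.93% against 4.74% of Wnt9b-negative cells, higher in 9 of 9 libraries, and Bmp6 in 8.92% against 11.7%, higher in 2 of 9. Some of the Dkk3 differences were slight or rested on few cells. At D5 of protocol A the shares were 2.87% and 2.81%, and in protocol B 2 of 46 Wnt9b-positive cells carried Dkk3 at D5 and 2 of 23 at D9. In fibroblasts, Wif1, a secreted Wnt inhibitor, was higher in protocol A than in protocol B (6.36 on the log2 scale, SE 0.85, edgeR adjusted p = 0.0485).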
